A study of Mus musculus with 2 samples.

Results

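Distal peaks with CpG island sequence are accessible sites that carry the base composition of a CpG island but lie away from the annotated starts of transcripts. In lung of male B6CASTF1/J mice, 809 of 92461 autosomal peaks of replicate 1 (0.875%) and 667 of 75564 of replicate 2 (0.883%) met this definition. A peak was counted when it lay over 2 kb from every GENCODE transcript 5′ end on mm10, and when the 501 bp around its centre had a GC content of 55% or more and a ratio of observed to expected CpG dinucleotides (o/e) of 0.6 or more. These members made up 1.48% of the 54680 distal peaks of replicate 1 (an exact 95% interval of 1.38 to 1.58) and 1.51% of the 44240 in the second library (1.40 to 1.63), a mean of 1.49% ± 0.0199 (SD, n = 2). Of all peaks with island sequence, 4.60% and 4.35% were distal and the rest lay near a 5′ end.

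The assay was DNase-seq, in which DNase I cuts open DNA in nuclei and the cut ends are sequenced. The 2 libraries form 1 group of lung tissue from 14-day-old male B6CASTF1/J hybrids. The labels of replicate 1 mention no pooling, while 3 males were pooled for replicate 2. The labels call the libraries biological replicates 1 and 2. Both carry the same donor record, and whether they share animals is not stated, so the spread between them may be partly technical. Whole lung mixes epithelial, mesenchymal, endothelial and blood cells, and all sequence values below come from the mm10 reference, so alleles of this hybrid that differ from it were not seen. No read counts were used, so the depth is unknown. With 1 group there is no contrast, and since an exact two-sided sign-flip test over 2 libraries cannot go below p = 0.5, no p-value is given. Values are given per library beside 3 other classes of peaks, and intervals cover the counting of peaks only.

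CpG dinucleotides are scarce in most of the mammalian genome because methylated cytosine mutates easily, and CpG islands are stretches that kept them, usually because they are unmethylated. Most islands mark promoters. Islands away from annotated starts, often called orphan islands, are known in part as promoters of unannotated or tissue-restricted transcripts, in part as elements near developmental genes that Polycomb complexes bind, and in part as coding exons of high GC content.

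The highest-ranked members show what such a sequence looks like. Each sequence below is the middle 151 bases of a peak found in both libraries, a member in all cases but one, read from the GRCm38 (mm10) reference on the plus strand, and touches no annotated exon. The first 2 are among the highest-ranked such members, shown to give the composition behind the strongest sites, with every CpG in capitals, at chr8:121585486-121585636 near Map1lc3b and chr14:65343766-65343916 near Zfp395.
Map1lc3b: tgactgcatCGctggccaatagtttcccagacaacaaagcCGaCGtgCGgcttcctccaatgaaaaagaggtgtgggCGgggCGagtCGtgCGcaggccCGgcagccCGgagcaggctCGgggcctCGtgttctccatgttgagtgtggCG
Zfp395: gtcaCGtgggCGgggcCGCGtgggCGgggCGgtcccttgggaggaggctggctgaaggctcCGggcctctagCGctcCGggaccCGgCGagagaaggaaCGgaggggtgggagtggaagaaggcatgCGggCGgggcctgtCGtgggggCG
They hold 13 and 16 CpGs. For comparison, the highest-ranked exon-free distal peak that was GC-rich but had a CpG o/e under 0.6, at chr1:180387566-180387716 near Itpkb, holds 8 CpGs in the same length.
Itpkb: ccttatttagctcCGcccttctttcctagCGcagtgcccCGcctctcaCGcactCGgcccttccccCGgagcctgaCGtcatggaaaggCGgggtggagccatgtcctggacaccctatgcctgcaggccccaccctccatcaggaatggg
Members with a consensus of a sequence-specific factor follow, with the match in capitals: the 2 highest-ranked exon-free members with the NRF1 consensus, at chr5:142367346-142367496 near Foxk1 and chr11:90418076-90418226 near Hlf, and the 2 with the CTCF consensus, at chr7:73618446-73618596 near Chd2 and chr11:95520826-95520976 near Nxph3.
Foxk1, NRF1: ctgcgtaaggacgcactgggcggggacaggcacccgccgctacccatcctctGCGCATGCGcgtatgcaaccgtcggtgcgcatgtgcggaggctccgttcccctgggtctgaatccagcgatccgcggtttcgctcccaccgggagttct
Hlf, NRF1: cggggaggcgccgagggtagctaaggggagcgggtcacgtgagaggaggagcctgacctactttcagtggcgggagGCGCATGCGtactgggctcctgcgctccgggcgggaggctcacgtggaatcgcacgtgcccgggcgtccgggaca
Chd2, CTCF: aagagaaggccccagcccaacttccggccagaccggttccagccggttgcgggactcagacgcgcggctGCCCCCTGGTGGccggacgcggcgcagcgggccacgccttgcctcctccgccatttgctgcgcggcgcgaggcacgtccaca
Nxph3, CTCF: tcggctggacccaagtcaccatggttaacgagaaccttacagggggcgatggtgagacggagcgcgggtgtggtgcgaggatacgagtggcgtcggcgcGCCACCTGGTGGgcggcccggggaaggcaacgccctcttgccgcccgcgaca
These 4 stretches hold 18, 17, 19 and 18 CpGs.

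Most members of either library were also members in the other. Merging overlapping members of both libraries gave 862 regions. Of the 809 members of replicate 1, 600 overlapped a member of replicate 2, and 19 overlapped a peak of replicate 2 that was no member there. The other 190 (23.5%) had no peak in the list of replicate 2, of which 88 also had none in its larger, less strict list. In replicate 2, 27 of 667 members (4.05%) had no peak in replicate 1, 16 of them in neither list. An overlapping peak in the other library's list was present for 76.5% and 95.95% of members, against 73.7% and 89.8% of all autosomal peaks. With its larger list the shares were 88.9% and 97.5% of members, against 88.5% and 96.6% of all autosomal peaks. Members were found on all 19 autosomes, from 17 on chromosome 19 to 88 on chromosome 11 in replicate 1 and from 14 to 70 in replicate 2, there on chromosomes 19 and 2. Some peaks of 1 list overlap each other, as did 16 and 8 members with the peak before them, so members are not all separate sites.

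The first question was how much of the distal island sequence of the genome was accessible. Of 4487 autosomal windows of 501 bp laid end to end that were distal and met both sequence limits, 763 overlapped a peak in replicate 1 (17.0%, with an exact 95% interval of 15.9 to 18.1) and 618 did in the second library (13.8%, 12.8 to 14.8), and 598 did so in both. The shares over all distal windows were 1.66% and 1.36%. Windows as rich in GC but with a CpG o/e under 0.6 were covered at 9.17% and 7.57% of 64493, and all other distal windows at 1.53% and 1.25%. Island windows within 2 kb of a transcript 5′ end were covered at 75.9% and 69.2% of 21767. The mean for distal island windows was 15.4% ± 2.29 (SD, n = 2), above the 8.37% ± 1.14 of GC-rich CpG-poor windows by more than the spread between libraries, and below the 72.5% ± 4.72 of island windows near 5′ ends.

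The open share of distal island windows was far lower in repeats. Of these windows, 2269 were marked as repeat over 50% or more of their bases in the reference, and 5 and 4 of them (0.220% and 0.176%) overlapped a peak. Of the 2218 windows with less repeat, 34.2% and 27.7% did, against 11.1% and 9.13% of GC-rich CpG-poor windows with less repeat. In 2153 of the repeat windows the middle 31 bases occurred more than once in the genome and none of the 116 repeat windows with a single-copy middle overlapped a peak in either library. The part that reads with several possible places had in the low share was not tested.

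The open share also fell with distance from transcript 5′ ends. It was 29.2% and 22% of 1000 island windows at 2 to 5 kb, 19.4% and 16.3% of 1764 at 5 to 20 kb, 8.79% and 7.61% of 1433 at 20 to 100 kb, and 2 of 290 windows (0.690%) in each library beyond 100 kb. Within the sequence classes, the highest shares lay at the richest composition: of the 294 distal windows with GC of 65% or more and CpG o/e of 0.8 or more, 43.9% and 35.03% overlapped a peak. At GC of 60% to 65% and the same o/e the shares were 38.01% and 30.4% of 171 windows. The share did not rise with o/e at every GC content. At GC of 55% to 60% it was 9.78% and 7.58% of 409 windows with o/e of 0.8 or more. There it was 16.9% and 14.7% at o/e of 0.6 to 0.8.

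**Figure D1:**
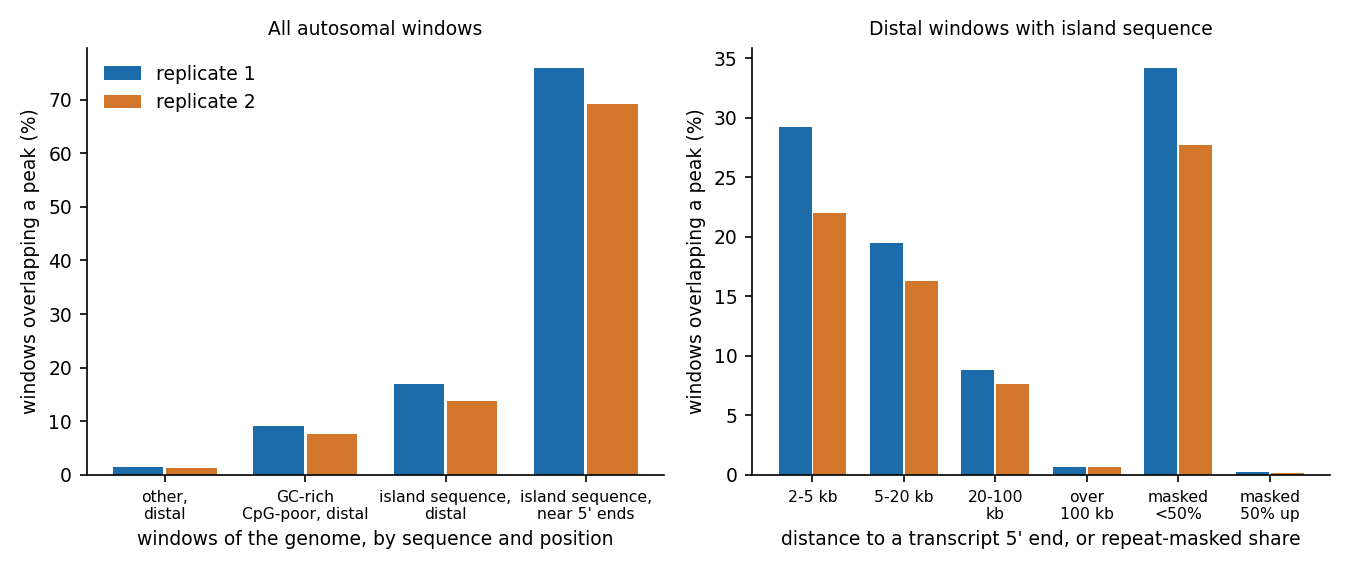
Share of 501 bp windows (percent, vertical axis) that overlap a peak, per library, for 4 classes of windows (left) and for distal island windows split by distance to a transcript 5′ end or by repeat-masked share (right). Distal island windows (17.0% and 13.8%) lie between GC-rich CpG-poor windows and island windows near 5′ ends, and windows that are 50% or more repeat (0.220% and 0.176%) are almost bare of peaks.

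Members were among the stronger distal sites. The peak score is the authors' own value for each peak, so it was used only as a percentile among the autosomal peaks of the same library. The median percentile of members was 66.4 in replicate 1 and 74.4 in replicate 2, against 55.3 and 56.1 for GC-rich CpG-poor distal peaks, 40.2 and 38.7 for other distal peaks, and 82.0 and 84.9 for island peaks near 5′ ends. The difference to the GC-rich CpG-poor class was 11.1 and 18.3 percentile points, a mean of 14.7 ± 5.12 (SD, n = 2), larger than the spread between the libraries. In the top decile of scores stood 174 members of replicate 1 (21.5%) and 147 of replicate 2 (22.04%), against 5.09% and 3.36% of GC-rich CpG-poor and 2.50% and 0.935% of other distal peaks. In the bottom decile stood 53 (6.55%) and 39 (5.85%), slightly above the 5.00% and 4.74% of GC-rich CpG-poor distal peaks. The shares there were 13.2% and 14.1% of other distal peaks, and 3.05% and 3.39% of island peaks near 5′ ends.

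**Figure D2:**
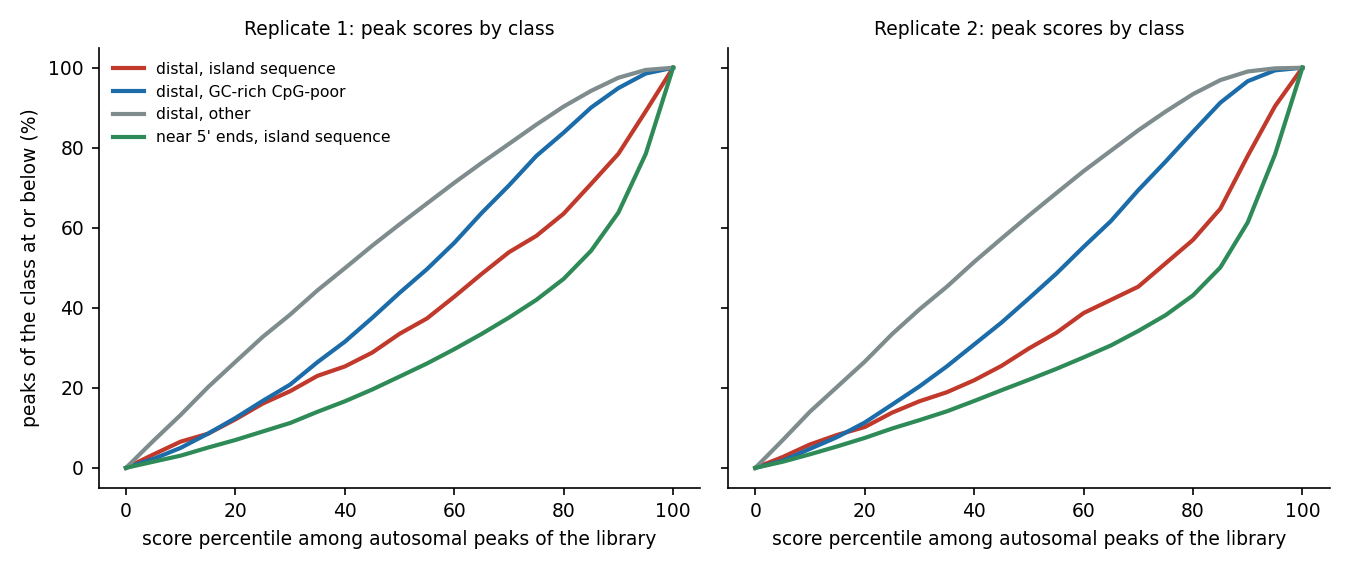
Cumulative share of peaks (percent, vertical axis) by score percentile within each library (horizontal axis), 1 line per class. The line of distal island-sequence peaks runs between the GC-rich CpG-poor distal peaks (medians 55.3 and 56.1) and the island peaks near 5′ ends (82.0 and 84.9).

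Among GC-rich distal peaks the score was higher at higher CpG content, with no step at the limit that both libraries shared. In replicate 1 the median percentile was 52.4 for peaks with o/e under 0.2, 59.1 at 0.4 to 0.5, 67.6 at 0.5 to 0.6, 64.1 at 0.6 to 0.7 and 67.4 at 0.8 or more. In replicate 2 it was 53.9, 61.7, 65.7, 70.5 and 77.6 in the same steps. Just inside and just outside the o/e limit, the 161 members of replicate 1 with o/e from 0.6 to 0.65 had a median of 64.5 and the 188 peaks from 0.55 to 0.6 had 71.7, while in replicate 2 142 members had 72.2 and 162 peaks 70.7. At the GC limit, 210 members of replicate 1 at 55% to 60% had 69.7 and 263 peaks at 50% to 55% had 66.7, and in replicate 2 these were 78.8 for 190 members and 69.2 for 187 peaks. A member at the o/e limit, the peak near Kdm6b at chr11:69420301-69420500, had an o/e of 0.6004 and stood at percentiles 74.1 and 64.4.

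The 600 members found in both libraries kept much the same rank. The median difference between their percentiles was 3.79 points, 455 (75.8%) stayed within 10 points, and their medians were 79.1 in replicate 1 and 75.9 in replicate 2. In both libraries 130 stood at the 90th percentile or above and 27 below the 25th.

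**Figure D3:**
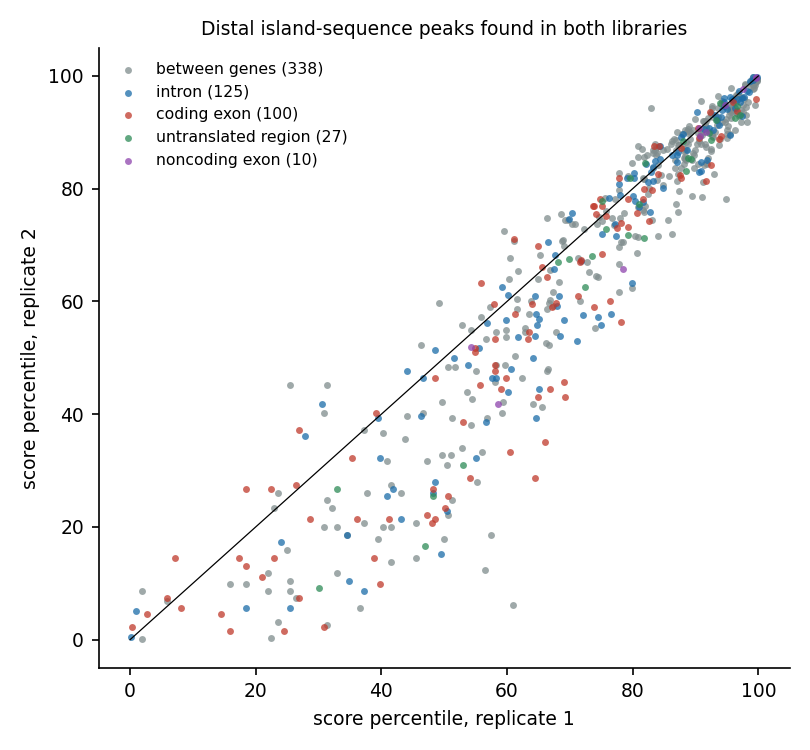
Score percentile in replicate 1 (horizontal axis) and replicate 2 (vertical axis) of the 600 members found in both libraries, coloured by position, with the line of equality. Points lie close to the line at high percentiles and spread out at low ones, and the median difference was 3.79 points.

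The 10 highest members by mean percentile lay near genes of varied function, and 6 of the 10 lay between genes. The highest was chr8:121585461-121585660, in an intron of the gene model Gm20388 and 4800 bp from the 5′ end of Map1lc3b, which encodes an autophagosome protein. Its score was 21.98 in replicate 1 and 24.6 in replicate 2. The site chr14:65343681-65344000, 14548 bp from Zfp395, scored 21.2 and 21.05. Both lay at or above percentile 99.5 in each library.

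Some of these strong sites have a start in another annotation. The site chr6:117879481-117879680, 17481 bp from the zinc finger gene Zfp239, scored 20.8 and 19.5 and itself holds a transcript 5′ end in RefSeq, as does chr15:85634441-85634860, 52178 bp from Wnt7b, a WNT ligand of the lung epithelium, with 16.6 and 23.1. In noncoding exons lay chr6:86472221-86472520, within A430078I02Rik and the coding gene C87436, with 19.8 and 23.0. The other was chr2:30658501-30658720, within 9330198N18Rik and Gm14486, with 19.97 and 21.7. Others were chr1:86487461-86487760, 39115 bp from Ptma, which encodes prothymosin alpha, chr7:38084881-38085240, 22473 bp from Ccne1, the gene of cyclin E1, and chr7:27361461-27361660, in an intron of the spectrin gene Sptbn4. Their scores were 19.4 and 20.01, 18.4 and 20.4, and 16.5 and 23.1.

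Members without a counterpart were mostly weak. In replicate 1 the 190 members without a peak in replicate 2 had a median percentile of 24.7 and 1.52 footprints per peak, against 78.1 and 3.38 for the 619 with one. In replicate 2 the 27 without one had 20.02 and 0.704, against 75.8 and 3.06. The highest of replicate 1 were chr11:85842101-85842272 near Gm11444, at percentile 78.2, chr4:55514761-55514980, 17595 bp from Klf4, at 73.7, and chr10:127170861-127171020 in a coding exon of B4galnt1, at 72.0. The first of them had a peak in the larger list of replicate 2, and the other two had none. The highest of replicate 2 were chr2:18767261-18767520 near Spag6, at 73.4, chr4:3874901-3875120 near Mos, at 62.8, and chr7:24377179-24377380 in an intron of Kcnn4, at 53.0, and of these the last had a peak in the larger list of replicate 1.

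A counterpart in the other library was more common the higher the score. A partner peak was present for 76.5% of members in replicate 1 and 95.95% in replicate 2, while over all autosomal peaks the shares were 73.7% and 89.8%. GC-rich CpG-poor distal peaks had 74.1% and 91.7%, a difference of 2.37 and 4.30 points (mean 3.33 ± 1.36, SD, n = 2). In the bottom decile 20.8% and 76.9% of members had one, while all 121 and 140 of the ninth decile and all 174 and 147 of the highest did. When GC-rich CpG-poor peaks were weighted to the score deciles of the members, their shares were 79.1% and 93.7%, above the members in replicate 1 and below them in replicate 2. The sign of the difference was therefore not the same in both libraries once the score was held equal.

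**Figure D4:**
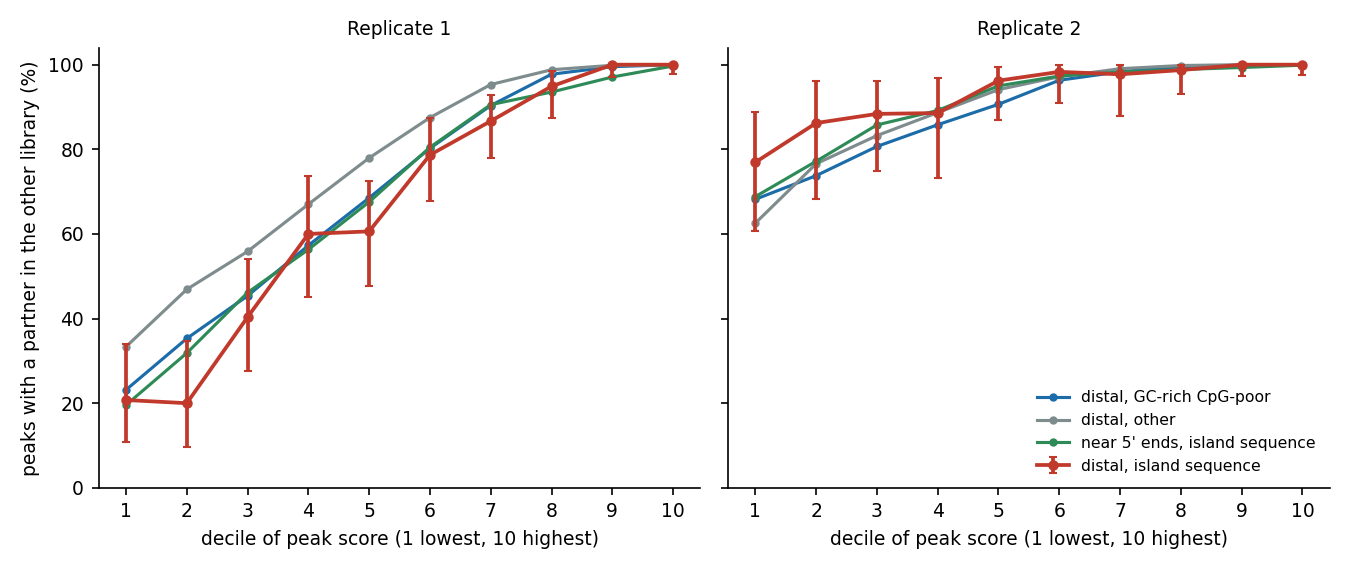
Share of peaks with an overlapping peak in the other library (percent, vertical axis) by decile of peak score (horizontal axis), 1 line per class, with exact 95% intervals on the distal island-sequence peaks. The share among distal island-sequence peaks goes from 20.8% and 76.9% in the lowest decile to 100% in the highest.

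By position, members lay more often in coding exons and less often in introns than the other distal classes. Of the members, 152 (18.8%) in replicate 1 and 106 (15.9%) in replicate 2 had their centre in a coding exon, against 5.14% and 4.48% of GC-rich CpG-poor and 1.24% and 1.20% of other distal peaks. Introns held 182 (22.5%) and 135 (20.2%), against 50.3% and 50.04%, and 50.2% and 49.8%. Between genes lay 418 (51.7%) and 378 (56.7%), and untranslated regions held 41 and 35 and noncoding exons 16 and 13. Members in coding exons had the lowest scores. The median percentile was 50.8 and 53.3 in coding exons, 62.2 and 71.6 in introns, 69.8 and 72.8 in untranslated regions, 68.5 and 89.3 in the few noncoding exons, and 77.8 and 81.3 between genes. In the GC-rich CpG-poor class coding exons were also lower than sites between genes, with 42.8 and 44.0 against 56.6 and 58.7.

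Coding exons rich in CpG gave some of the most extreme compositions. The highest-ranked exonic members were chr2:91115161-91115320 in Spi1, which encodes the myeloid and B-cell factor PU.1, with scores 18.7 and 11.6, chr7:127254041-127254280 in the zinc finger gene Zfp771, with 10.5 and 10.99, and chr14:20661061-20661260 in Synpo2l, with 11.1 and 9.30. The Zfp771 exon also had the highest CpG o/e of all shared members, 1.30, with 81 CpGs in 501 bp. Next in o/e came coding exons of Snx20 (chr8:88627281-88627640, 1.25) and C1qtnf4 (chr2:90889681-90889920, 1.24), of middling strength at percentiles 73.9 and 77.0, and 48.5 and 46.5. In untranslated regions the highest were those in Pura, with scores 11.1 and 10.2, in the agouti gene a (chr2:155050741-155050920), with 11.8 and 8.76, and in Sf3b5 (chr10:13008321-13008540), with 8.61 and 10.9. The highest noncoding exon after the 2 among the 10 strongest was in D830036C21Rik (chr7:19320041-19320260), 10100 bp from Fosb, with 12.6 and 14.8.

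Members lay nearer to transcript starts than other distal peaks. The median distance to the nearest GENCODE 5′ end was 6914 bp and 7148 bp, against 8999 and 9146 bp for GC-rich CpG-poor and 13512 and 13712 bp for other distal peaks. Of the members, 312 and 245 lay at 2 to 5 kb, 351 and 298 at 5 to 20 kb, 143 and 122 at 20 to 100 kb, and 3 and 2 beyond 100 kb. The median percentile was 60.2 and 74.2 at 2 to 5 kb, 72.0 and 77.0 at 5 to 20 kb, and 65.1 and 69.0 at 20 to 100 kb. In other distal peaks it fell from 47.5 and 46.1 to 33.8 and 32.2 over the same steps. Of the 3 farthest shared members, the one 180814 bp from any 5′ end, for which Gata6 was the nearest coding gene, stood at percentiles 61.3 and 50.2, and chr2:172728241-172728460, 135881 bp away and nearest to Tfap2c, at 40.8 and 31.6. The third, chr6:51178561-51178760, 91150 bp away and nearest to Nfe2l3, had higher scores and stood at 83.6 and 86.8.

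Whether a member counted as distal depended in part on the annotation. A RefSeq transcript 5′ end lay within 2 kb of 199 members (24.6%) in replicate 1 and 171 (25.6%) in replicate 2, against 10.6% and 10.3% of GC-rich CpG-poor and 5.43% of other distal peaks in each library. Of these members, 49 and 38 held such an end within the peak itself, with median percentiles of 74.1 and 78.3. Members with and without a RefSeq end within 2 kb had almost the same median score, 66.4 and 66.4 in replicate 1 and 74.8 and 74.3 in replicate 2. The continuous island sequence around the centre, followed in steps of 50 bp, had a median length of 1001 bp and 951 bp, shorter than the 1301 bp of island peaks near 5′ ends in each library. It reached to within 2 kb of a 5′ end in 83 and 67 members and held one in 2 and 1. Members with an island of 1000 bp or more had lower median percentiles (62.2 and 69.8) than those with 600 to 1000 bp (72.4 and 78.1).

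Footprints are short stretches inside accessible DNA that were protected from cleavage, as bound proteins do. Members held 2.95 and 2.96 footprints per peak, against 2.55 and 2.47 in GC-rich CpG-poor distal peaks, a mean difference of 0.446 ± 0.0690 (SD, n = 2). Other distal peaks held 2.24 and 2.07, and island peaks near 5′ ends 3.11 and 3.24. The share with at least 1 whole footprint ran the other way: 711 members (87.9%) and 593 (88.9%), beside 87.8% and 86.3% of all autosomal peaks, but 91.7% and 90.3% of GC-rich CpG-poor peaks. Members were wider than those, with a mean of 214 and 217 bp against 190 and 201 bp at the same mix of score deciles, and at that mix the class held 2.71 and 2.85 footprints per peak. Per length the difference was smaller: members held 1.38 and 1.36 footprints per 100 bp, against 1.32 and 1.26 in GC-rich CpG-poor peaks, and at the members' mix of score deciles those peaks held 1.42 and 1.42, above the members in both libraries. At that mix island peaks near 5′ ends held 2.61 and 2.83 footprints per peak, below the members' 2.95 and 2.96. At least 1 whole footprint lay in 81.2% and 83.1% of island peaks near 5′ ends, without that weighting.

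Within members, footprints lay on the CpGs more than between them. They held 12.3 CpGs per 100 bp in each library, against 8.49 and 8.28 in the rest of the peak, a ratio of 1.45 and 1.48. The ratio was 1.505 and 1.597 in GC-rich CpG-poor distal peaks and 1.42 and 1.44 in island peaks near 5′ ends, so the excess was present in all of them. The members with the most footprints were chr4:55651141-55651700, 118955 bp from Klf4, a zinc finger factor of endothelium and epithelium, with 12 in each library, chr11:19920121-19920660 near Spred2, a brake on MAPK signalling, with 10 and 11, and chr3:52102001-52102500 in an intron of Maml3, a Notch coactivator, with 10 in each. These 3 peaks were 560, 540 and 500 bp wide in replicate 1, against a median of 200 bp.

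Consensus sequences of transcription factors set members between distal peaks and promoter islands. Matches on either strand were searched in the middle 151 bp. GGGCGG, the GC box bound by KLF and SP factors, was present in 383 members (47.3%) of replicate 1 and 333 (49.9%) of replicate 2, against 19.6% and 20.7% of all autosomal peaks. GC-rich CpG-poor distal peaks held it at 18.3% and 18.8% and island peaks near 5′ ends at 59.2% and 60.8%. Distal island windows with no peak in any list held it at 24.3% of 3502, and at 18.8% of the 1242 with under 50% repeat. The difference to the GC-rich CpG-poor peaks, 30.1 points ± 1.52 (SD, n = 2), was larger than the spread between libraries, but this consensus contains a CpG that the rule favours.

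Several other consensus sequences were also more common in members than in GC-rich CpG-poor peaks, at lower levels. GCGCATGCG, bound by NRF1, a factor of promoters of mitochondrial and housekeeping genes, occurred in 12 members (1.48%) and 13 (1.95%), against 0.368% and 0.367% of GC-rich CpG-poor peaks, 2.42% and 2.59% of island peaks near 5′ ends and 0.699% and 0.772% of all peaks. The mean difference to GC-rich CpG-poor peaks, 1.35 points, was 0.806 at stricter limits of GC 0.60 and o/e 0.75, and 2.28 when 250 bases on each side were searched. TGACGTCA, the cAMP response element bound by CREB and ATF factors, occurred in 13 (1.61%) and 12 (1.799%), against 0.526% and 0.647%, with 0.853% and 0.973% in all peaks. CCGGAAG, a core of ETS factors, occurred in 42 (5.19%) and 40 (6.00%), against 3.09% and 3.45%, with 3.72% and 4.20% in all peaks, but distal island windows with no peak held it at 6.05%, and at 2.90% where they had under 50% repeat. CACGTG, the E-box, occurred in 46 (5.69%) and 45 (6.75%), against 3.70% and 3.86%, with 6.12% and 6.67% in island peaks near 5′ ends, 6.36% in windows with no peak and under 50% repeat, and 3.903% and 4.20% in all peaks. CCAATCA, bound by NFY and without a CpG, occurred in 19 (2.35%) and 20 (3.00%), against 1.46% and 1.53% of GC-rich CpG-poor and 2.60% and 2.92% of all peaks.

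The consensus sequences of CTCF and of several factors known from enhancers were rarer in members than in GC-rich CpG-poor peaks. The CTCF consensus was found in 18 members of each library (2.22% and 2.70%), against 5.24% and 5.86% of GC-rich CpG-poor peaks, 9.17% and 9.61% of other distal peaks, 0.6503% and 0.681% of island peaks near 5′ ends, and 6.42% and 6.75% of all peaks. This depended on the sequence limits: the mean difference to GC-rich CpG-poor peaks was -3.09 points, but -0.278 at the stricter limits of GC 0.60 and o/e 0.75, and -4.73 in the higher-scoring 50% of peaks. TGANTCA, bound by AP-1 factors such as JUN and FOS, occurred in 23 (2.84%) and 19 (2.85%), against 6.70% and 6.64%, with 5.54% and 5.51% in all peaks. The AP-1 difference of -3.82 points was -2.31 at the stricter limits, -2.14 with windows of 500 bases on each side, and -8.52 when 250 bases on each side were searched. GGAATGT, bound by TEAD factors, occurred in 12 (1.48%) and 7 (1.05%), against 3.93% and 3.82%, with 3.09% and 3.06% in all peaks. TGTTTAC, bound by FOX factors, occurred in 8 (0.989%) and 9 (1.35%), against 2.09% and 2.41%, with 2.66% and 2.80% in all peaks, and AGATAAG, bound by GATA factors, in 4 of each library, against 1.49% and 1.51%, with 1.42% and 1.502% in all peaks. The rule favours GC-rich sequence, and the part of composition in these lower shares was not tested. Among distal island windows with no peak and under 50% repeat, 0 of 1242 held the CTCF consensus. The AP-1 consensus was found in 1.05% of these windows, that of TEAD in 0.644% and that of FOX in 0.322%. Members of both libraries were above these window shares. The GATA consensus went the other way, with 0.886% of these windows, above the share of members in each library. No member held the REST consensus, found in 0.265% and 0.213% of all peaks.

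**Figure D5:**
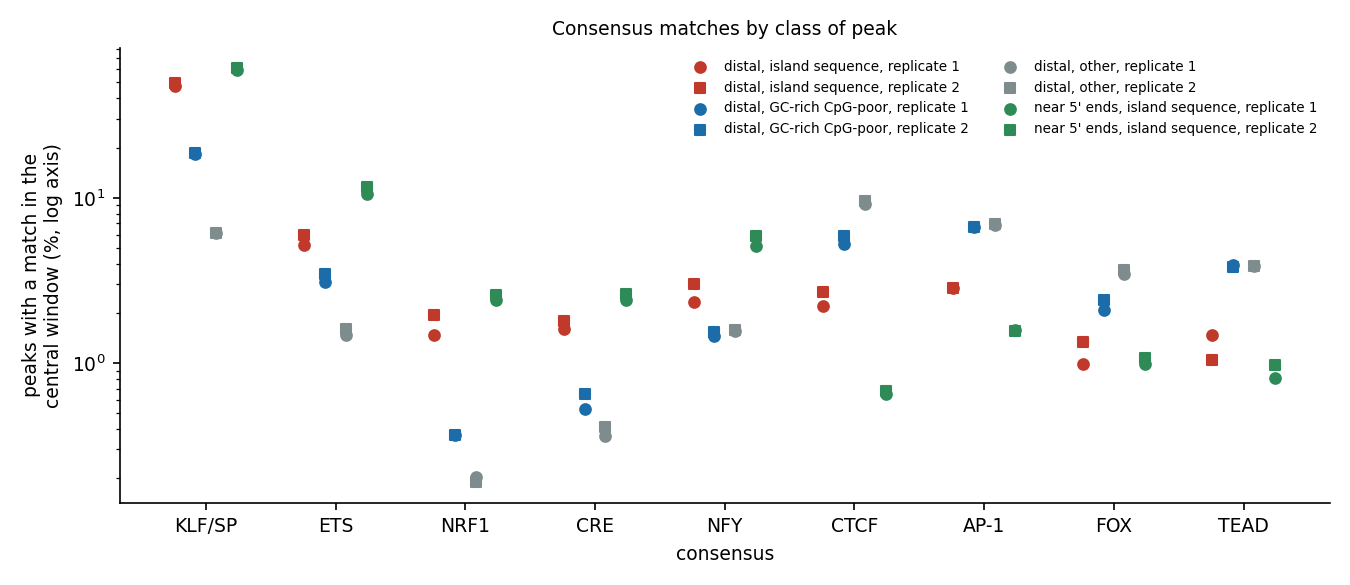
Share of peaks with a consensus match in the middle 151 bp (percent on a log axis, vertical) for 9 consensus sequences (horizontal axis), by class (colour) and library (marker shape). Distal island-sequence peaks lie between GC-rich CpG-poor distal peaks and island peaks near 5′ ends for KLF/SP, ETS, NRF1, CRE, NFY, CTCF, AP-1 and TEAD. For FOX they do so in replicate 2 only.

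Where a consensus was present in a member, its protection from cleavage differed between factors. Of the matches anywhere in a member peak, all 20 CTCF matches of replicate 1 and 18 of 19 of replicate 2 had at least 50% of their bases in a footprint. The same held for 16 of 19 and 17 of 19 NRF1 matches, for 12 of 14 and 15 of 17 cAMP response elements, and for 364 of 808 (45.05%) and 354 of 679 (52.1%) GC boxes. AP-1 matches were protected in 1 of 27 and 1 of 26 cases and FOX matches in 0 of 15 and 1 of 13. In GC-rich CpG-poor peaks the protected shares were 96.4% and 93.6% for CTCF, 43.1% and 46.5% for GC boxes, 65.2% of 23 and 68.8% of 16 matches for NRF1, where members had 84.2% and 89.5%, and 10.5% and 11.6% for AP-1. Members with a match were also stronger: the 12 and 13 with NRF1 had median percentiles of 89.5 and 89.3, and the 19 and 20 with NFY 91.7 and 92.2, against 66.1 and 74.1, and 65.6 and 73.5, without. With a GC box the medians were 74.7 and 80.0, against 61.2 and 70.6 without.

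Members lay near developmental regulators more often than other distal peaks, and the scores of those sites were low. For 33 members (4.08%) of replicate 1 and 15 (2.25%) of replicate 2 the nearest coding gene was 1 of 140 developmental transcription factors, against 0.813% and 0.730% of all other distal peaks. For this and the other gene lists, those peaks include the GC-rich CpG-poor class, whose own share is not given here. The 33 and 15 members lay nearest to 21 and 12 distinct genes. Their median percentile was 38.8 and 32.2, and 23 of the 33 and 9 of the 15 stood under the 50th. Of the 33 in replicate 1, 15 had a partner in replicate 2, and of the 15 in replicate 2, 14 had one in replicate 1. The highest-ranked lay 38708 bp from Foxe1, a thyroid and craniofacial regulator (chr4:46304821-46304980, percentiles 90.9 and 83.2). Next came a site 7684 bp from Neurog2, a neuronal factor (chr3:127625361-127625540, 80.8 and 71.4). The third lay 141144 bp from Meis1, a homeobox factor (chr11:18877721-18877960, 73.1 and 65.3). All 3 had a RefSeq 5′ end within 5 kb.

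Members also lay near regulators of lung cells more often than other distal peaks did. Near the 36 regulators of lung epithelium and mesenchyme lay 26 members (3.21%) of replicate 1 and 12 (1.799%) of replicate 2, against 0.856% and 0.762% of other distal peaks, and 10 of the 26 and 10 of the 12 had a partner. Their median percentile was 42.1 and 52.6, and 14 of the 26 and 4 of the 12 stood under the 50th. Members near no gene of the 5 lists numbered 721 and 619. The genes that follow were chosen after their values were seen. Irx3 and Irx5, homeobox genes of 1 cluster, are not in the lung list. Their members count among the 33 and 15 of the developmental list above. Irx3 and Irx5 had 4 and 6 members in replicate 1 but 0 and 1 in replicate 2. In the lung list, Nr2f2, a nuclear receptor of veins and mesenchyme, had 7 and 1, and Foxa1, a pioneer factor of epithelium, had 4 and 0. In replicate 1, 3 of the Irx3, 2 of the Irx5, 5 of the Nr2f2 and 4 of the Foxa1 members had no peak in either list of replicate 2. Over all members near each gene, percentiles in replicate 1 ran from 19.96 to 79.4 near Irx3, from 4.71 to 46.1 near Irx5, from 2.10 to 68.4 near Nr2f2 and from 20.97 to 55.1 near Foxa1. The part of the score in these differences was not tested. The highest-ranked lung regulator sites were in both libraries. They were led by an intron of Nfib (chr4:82513221-82513440), a factor of lung maturation, at percentiles 97.5 and 96.1. A site 49536 bp from Foxp4 (chr17:47974021-47974340) stood at 84.8 and 80.6. A site 112105 bp from Foxf1 (chr8:120972161-120972400), a mesenchymal regulator, stood at 69.8 and 74.6.

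The signalling and vascular lists had fewer members by count, but the lists differ in length. Near 73 WNT, BMP, FGF and hedgehog ligands and antagonists lay 16 (1.98%) and 11 (1.65%), against 0.666% and 0.615% of other distal peaks. After the Wnt7b site came chr3:104968081-104968240, 6240 bp from Wnt2b, at percentiles 95.6 and 93.9, and chr1:74816901-74817100, 25485 bp from Wnt10a, at 90.8 and 90.1. Near 24 endothelial regulators lay 10 and 7 members (1.24% and 1.05%, against 0.496% and 0.512%), led by the overlapping pair near Klf4 at percentiles 88.8 and 89.95, and 83.5 and 87.9, and by a site 74517 bp from Sox17, a factor of arteries (chr1:4571681-4572060), at 83.2 and 86.8. Imprinted genes were nearest to 3 members in each library: chr15:73067481-73067840 near Trappc9, at 99.3 and 99.6, an untranslated region of H13 for which Mcts2 was the nearest gene by its 5′ end (chr2:152707721-152707920), at 93.3 and 92.2, and chr7:143464881-143465100 near Cdkn1c, at 50.7 and 22.1. Their share, 0.371% and 0.450%, was below the 0.507% and 0.509% of other distal peaks.

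Most nearest genes had a single shared member. The 600 shared members had 478 distinct nearest coding genes, 96 of which had 2 or more and 21 had 3 or more. Up to 4 lay nearest to Chd7, a chromatin remodeller, Kdm6b, a histone H3K27 demethylase, Pdia4, Tchh and Zfp503, and 159 shared members lay within 5 kb of another. Near Kdm6b, 2 of the 4 were in introns and 2 outside the gene, while all those of Tchh and Zfp503 lay in coding exons, some of them overlapping each other near Zfp503.

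Few members had repeated sequence. The middle 31 bases occurred more than once in the genome for 13 members of replicate 1 (1.61%) and 12 of replicate 2 (1.799%). These shares were above the 1.22% of all autosomal peaks in each library, and the 0.789% and 0.625% of GC-rich CpG-poor distal peaks. In each library 2 members (0.247% and 0.300%) were 50% or more repeat, against 2.10% and 1.74% of all autosomal peaks. All members included bases with a listed false discovery rate no higher than 0.001, which was true of each autosomal peak in these lists, and such bases made up 99.3% of the member bases in each library. As a check of the tissue, a peak lay within 1 kb of a transcript 5′ end for all 6 lung epithelial, 4 mesenchymal and 4 endothelial markers in each library, for 1 of 4 blood markers, and for none of the 3 heart and 2 liver markers.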

How the data were processed

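DNase-seq peaks, footprints and false discovery rates of 2 lung libraries were used as deposited. Peak scores are the authors' own score per peak in the deposited lists, of unstated scale, so they were only ranked within a library. The deposited p-value columns hold the false discovery rate of cleavage, listed up to 0.05, and a footprint threshold of 0.01. The build was mm10, per the listing deposited with the files. Each library was called on its own. Aligner and peak caller: not given in the sources used here. No read counts were used, so depth is unknown.

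The smaller peak list of each library was used. Distances ran from the peak edge to the nearest transcript 5′ end of GENCODE release M21, and sequence came from the GRCm38 (mm10) reference. GC and CpG o/e were taken over the centre base and 250 bases on each side. Overlap meant 1 base or more. In replicates 1 and 2, 15 and 10 peaks had no sequence value, and 583 and 380 peaks overlapped the peak before them. Position was that of the centre base, in the order coding exon, untranslated region, noncoding exon, intron, between genes. Members and lists were chosen with earlier results of these data known. Members were named by rank: shared members ordered by mean percentile, the 10 highest, then the 3 highest by position, gene list, distance, footprints and CpG o/e, the 3 highest without a partner in each library, and those nearest the limits. One of the 10 highest is not reported here. Intervals are exact (Clopper-Pearson) at 95% and cover counting only. Alternatives changed the peak list, distance, window, limits, transcripts, score range, consensus window and repeats. The code was tested on simulated data. Python 3.11.15, numpy 2.4.6, pandas 2.3.3, scipy 1.17.1 and matplotlib 3.10.9 were used.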

Additional observations from a re-analysis of the deposited data

How the results depend on the processing

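With each processing choice changed alone, 38 of the values that answer a comparison stayed within a set limit and 28 went beyond it, and none of these changed sign. The limit was the spread between the 2 libraries, except for the number of members, where it was a fixed ratio to the main count. Some member counts within it, such as 929 with the larger peak list, therefore moved by more than their SD of 100. The mean number of members per library was 738, and it was 1111 over 1 kb from 5′ ends, 459.5 over 5 kb, 467.5 with windows of 500 bases on each side, 1373 with 100 bases, and 285.5 at the stricter limits of GC 0.60 and CpG o/e 0.75. The mean difference in partners to GC-rich CpG-poor distal peaks, 3.33 points, was 6.10 over 5 kb and 1.93 at the stricter limits. The percentile difference, 14.7, was 8.74 with windows of 500 bases, 8.14 at the stricter limits and 25.1 in the higher-scoring 50% of peaks. The difference in footprints per peak, 0.446, was 0.303 over 1 kb, 0.310 with windows of 500 bases and 0.261 at the stricter limits. The GC box difference, 30.1 points, was 27.9 over 1 kb, 32.5 over 5 kb, 25.1 and 25.4 with windows of 500 and 100 bases, 15.5 at the stricter limits, 31.7 in the higher-scoring 50%, and 38.9 when 250 bases on each side were searched. The share of distal island windows with a peak, 15.4%, was 19.4% with the larger peak list, 18.6% over 1 kb, 12.5% over 5 kb, 36.9% at the stricter limits, 10.9% with the higher-scoring 50%, 30.9% without windows 50% or more repeat, 6.39% when the centre base had to lie in a peak, and 32.1% without windows whose middle 31 bases are repeated. The share of members with a footprint minus that of GC-rich CpG-poor peaks was -2.61 points and turned to 0.207 with the larger peak list; the cause was not tested. Each library alone gave 667 to 809 members, 2.37 to 4.30 points for partners, 11.1 to 18.3 for percentiles, 0.397 to 0.495 footprints, 29.0 to 31.2 points for the GC box and 13.8% to 17.0% of windows. Adding RefSeq transcripts and leaving out repeated middle bases were chosen after seeing the data. Other window sizes were not run for the window shares. No paired analysis was possible because the 2 libraries form 1 group.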
